A study of Mus musculus with 11 samples.

Results

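The genes described here encode 9 enzymes and enzyme subunits of the citric acid cycle: Cs, Idh3a, Idh3b, Idh3g, Ogdh, Sucla2, Suclg1, Sdha and Mdh2. They were picked by gene symbol as enzymes of this pathway, with earlier results of these data known, and all 9 were found among the 12787 genes listed for the tissue. RNA was sequenced from the gonadal white adipose tissue (WAT) of 11 male C57Bl6/J mice, with 1 library per mouse. The HFD group held 5 mice that received vehicle with a 60% high fat diet (HFD) for 20 weeks. The HFD + IMC group held 6 mice given the same diet for the same time with 0.06% w/w iodomethylcholine (IMC), an inhibitor of the microbial choline TMA lyase, which makes trimethylamine from choline. Both groups thus shared the diet, no chow-fed mice were part of this comparison, and a sixth vehicle sample was dropped by the authors at quality control. The age of the mice at tissue collection was not given with the sequencing. Mice were group-housed, with more than 1 cage per condition, and the cage of each mouse was not given. Mice of a group may therefore share a cage, and each p-value measures only the spread between these mice.

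The citric acid cycle runs in the mitochondrial matrix. Acetyl-CoA joins oxaloacetate to form citrate, which is oxidised step by step back to oxaloacetate, and the electrons are passed as NADH or through succinate dehydrogenase to the respiratory chain. In white adipocytes the cycle also feeds fat synthesis, because citrate that leaves the mitochondrion is the source of cytosolic acetyl-CoA. Several steps are carried out by complexes of different subunits, so the levels of partner subunits can be set against each other within a mouse.

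Expression was deposited as log2 CPM, the log2 of read counts per 1000000 reads (CPM) after upper-quartile scaling of each library. The libraries held 22320022 to 25155366 reads on listed genes, and the 9 genes had between 1808 and 12734 reads per mouse, so counting error was small for each of them. The tissue label was checked with markers. Beside the counts below, 20% of all genes were higher and 21% were lower in IMC-treated mice. All 10 white adipocyte markers were listed and were higher in the IMC-treated mice (median log2 fold change 0.83), with a summed level of 10011 to 14252 CPM in HFD mice and 19457 to 23684 CPM in IMC-treated mice. Of 12 macrophage markers, 11 were lower (median log2 fold change -0.62), with sums of 14203 to 18504 CPM and 7620 to 11701 CPM. The brown adipocyte genes Ucp1 and Zic1 were not listed, and of the 4 that were, Cidea alone was higher (log2 fold change 1.15), with sums of 8.65 to 11.8 CPM and 9.76 to 16.3 CPM. Of 12 skeletal muscle markers 6 were listed and 4 were higher, with sums of 27.5 to 41.6 CPM and 51.4 to 84.3 CPM, while Ckm, Myh1 and Myh4 were not listed. Of 6 fibroblast markers 3 were lower, with sums of 9074 to 11523 CPM and 7203 to 9281 CPM. Of 5 endothelial markers 1 was higher (Cdh5, 0.41, adjusted p = 0.0051), with sums of 317 to 441 CPM and 385 to 506 CPM. Of 4 mesothelial markers 3 were listed and 1 was lower (Wt1, -0.57, adjusted p = 0.0141), with sums of 152 to 209 CPM and 70.5 to 172 CPM. For Upk3b, another mesothelial marker, IMC-treated mice 4 and 6 stood at 5.57 and 5.51 log2 CPM, while the other 9 mice lay between 6.74 and 7.11. Cidea, Cdh5, Wt1 and Upk3b were named after their values were seen. The 5 T cell and the 5 epididymal epithelium markers were not listed.

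All 9 cycle genes were higher in the gonadal WAT of IMC-treated mice than in that of HFD mice. The difference was largest for Sucla2, a subunit of succinyl-CoA ligase, which was 1.47-fold higher. It was smallest for Idh3b, a subunit of isocitrate dehydrogenase, which was 1.10-fold higher. The median log2 fold change of the 9 was 0.35, and their summed level was 1821 to 2031 CPM in HFD mice and 2296 to 2679 CPM in IMC-treated mice. Of all 12787 genes, 20% were higher and 21% were lower at an adjusted p under 0.05 (limma, Benjamini-Hochberg over all genes), and the median log2 fold change of all genes was -0.03. For 7 of the 9 genes every IMC-treated mouse was above every HFD mouse, which was the case for 12.5% of all genes. The exceptions were Idh3b and Mdh2. Of the 7, Suclg1 had the smallest gap, 0.016 on the log2 scale, a size that can depend on how the libraries were scaled. The adipocyte and macrophage marker sums did not overlap between the groups either, and their part in the difference was not tested. In a whole tissue, fewer cells of a type and less RNA per cell cannot be told apart.

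**Figure D1:**
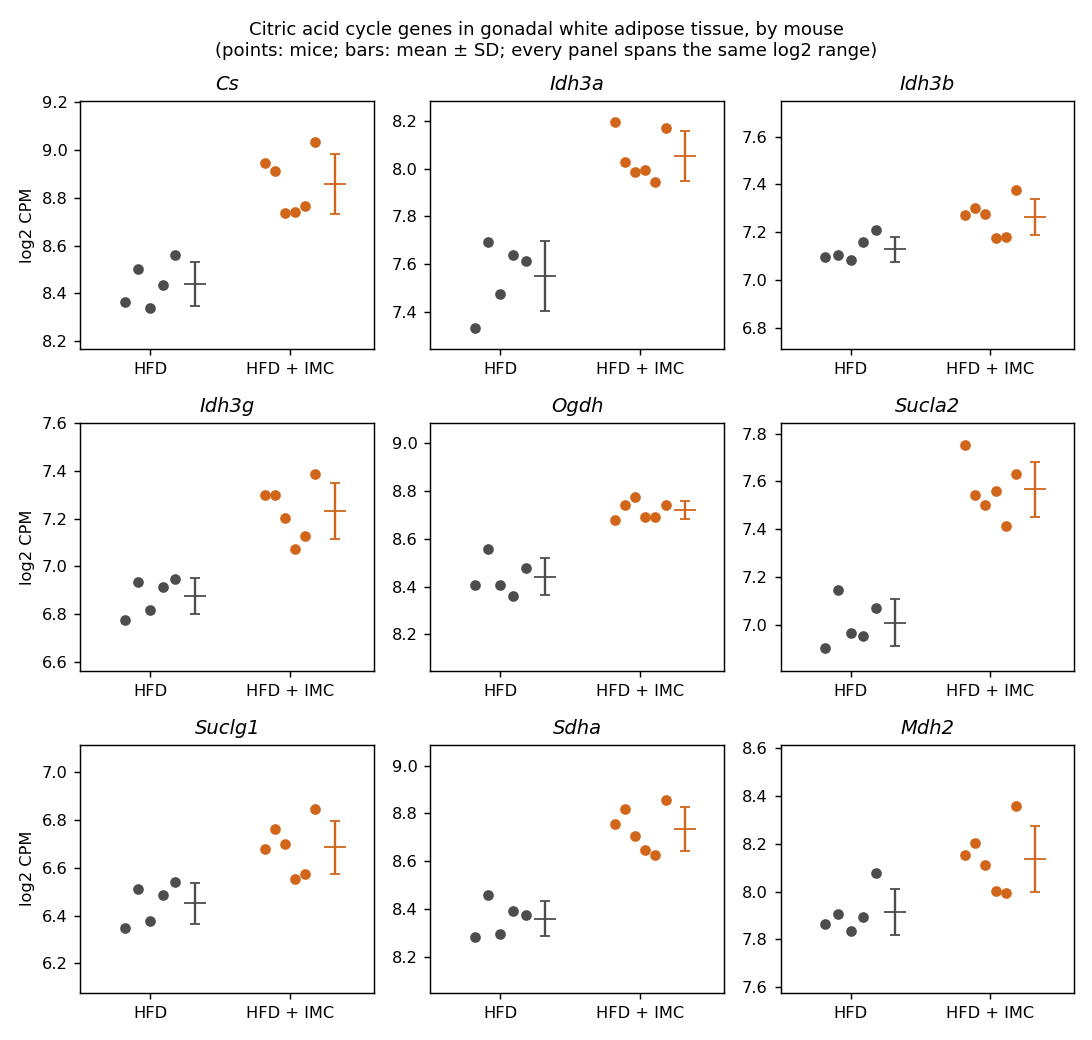
Log2 CPM of the 9 genes in each mouse (y axis, the same span in every panel) for HFD (grey, 5 mice) and HFD + IMC (orange, 6 mice), with the mean ± SD beside the points. The groups are apart in 7 panels and overlap for Idh3b and Mdh2.

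The same mice stood at the ends of their group for many of the genes. Among HFD mice, mouse 1 was the lowest for 5 of the 9 genes and mouse 3 for 3, and the highest was mouse 5 for 5 genes and mouse 2 for 4. Among IMC-treated mice, mouse 6 was the highest for 6 genes, and the lowest was mouse 5 for 4 genes and mouse 4 for 3. For Ogdh other mice stood at some ends: HFD mouse 4 and IMC-treated mouse 1 were the lowest of their groups, and IMC-treated mouse 3 was the highest. IMC-treated mice 4 and 5 exceeded all HFD mice for 7 of the 9 genes, and the other 4 IMC-treated mice did so for all 9. HFD mice 2 and 5 also had the highest adipocyte sums of their group (13925 and 14252 CPM), and IMC-treated mouse 6 had the lowest macrophage sum of all (7620 CPM). The highest adipocyte sum among IMC-treated mice was that of mouse 1 (23684 CPM), above that of mouse 6 (22737 CPM).

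Sequences upstream of 4 genes are shown because these genes carry the contrasts in the data. Sucla2 had the largest and Idh3b the smallest difference of the 9, and Sdha and Sdhb encode subunits of 1 enzyme that differed in their response. Each is the 250 bases before the RefSeq transcription start (GRCm38.p6), read 5′ to 3′ on the strand of the gene. Sucla2 is at chr14:73552536-73552785 on the plus strand, Sdha at chr13:74350241-74350490 on the minus strand, Sdhb at chr4:140961021-140961270 on the plus strand and Idh3b at chr2:130284452-130284701 on the minus strand. The RefSeq starts differ from the ends of the GENCODE spans given for these genes. The start used for Sucla2 lies 27467 bases inside its span, and those of Sdha, Sdhb and Idh3b lie 40, 68 and 96 bases inside theirs. Capitals mark matches, on either strand, to any of 5 letter patterns tied to regulators of mitochondrial or housekeeping genes: TNAAGGTCA (estrogen related receptor), GCGCANGCG (NRF1), CCGGAAGTG (GABPA), GGGCGG (SP1) and CCAAT (NFY).
Sucla2: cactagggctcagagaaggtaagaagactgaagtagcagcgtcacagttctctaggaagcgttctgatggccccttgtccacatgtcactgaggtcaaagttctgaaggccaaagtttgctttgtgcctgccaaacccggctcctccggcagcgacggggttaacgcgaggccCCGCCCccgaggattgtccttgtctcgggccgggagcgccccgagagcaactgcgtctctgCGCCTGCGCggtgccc
Sdha: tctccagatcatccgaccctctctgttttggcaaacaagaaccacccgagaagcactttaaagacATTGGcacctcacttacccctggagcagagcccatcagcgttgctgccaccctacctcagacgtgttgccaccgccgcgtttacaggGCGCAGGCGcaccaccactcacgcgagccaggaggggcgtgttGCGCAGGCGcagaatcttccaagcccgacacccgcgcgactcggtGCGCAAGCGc
Sdhb: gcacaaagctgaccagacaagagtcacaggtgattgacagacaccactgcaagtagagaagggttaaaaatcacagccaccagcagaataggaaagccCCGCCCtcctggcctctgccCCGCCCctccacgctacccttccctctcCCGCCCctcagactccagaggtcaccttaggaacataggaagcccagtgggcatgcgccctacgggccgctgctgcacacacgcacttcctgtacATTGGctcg
Idh3b: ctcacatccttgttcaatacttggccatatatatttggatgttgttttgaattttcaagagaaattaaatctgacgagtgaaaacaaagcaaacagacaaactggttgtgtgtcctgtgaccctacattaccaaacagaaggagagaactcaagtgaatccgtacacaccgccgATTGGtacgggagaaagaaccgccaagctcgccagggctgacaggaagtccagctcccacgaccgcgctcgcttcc
The Sdha sequence held 3 matches to the NRF1 pattern, beginning 98, 55 and 10 bases before the start, and that of Sucla2 held 1 at 16 bases. The Sdhb sequence held 3 SP1 matches and 1 NFY match, and the Idh3b sequence held 1 NFY match alone. GC content was 61.2% for Sucla2, 61.6% for Sdha, 59.2% for Sdhb and 46.8% for Idh3b.

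RefSeq windows of this kind were found for 8 of the 9 genes. Idh3a had none and Ogdh had 6 alternative starts. The 8 genes thus held 13 windows, and a gene was counted when any of its windows held a match. The NRF1 pattern was present for 3 of the 8 genes (Sdha, Sucla2 and Ogdh), against 5.86% of all 27025 genes with a window. Matches lay in 4 of the 13 windows, against 5.16% of all 32851 windows. The 2 Ogdh windows among these 4 overlap and hold the same site. The NRF1 pattern was present for 1 of the 8 other cycle genes with a window, Sdhd. The SP1 and NFY patterns were each present for 4 of the 8 genes and for 6 of the 8 other cycle genes, against 35.4% and 37.5% of all genes with a window. The estrogen related receptor and GABPA patterns were in none of these windows, and were present for 352 and 433 of the 27025 genes. A match describes letters only, and no binding was measured here. With 4.51 ± 0.08 (SD, n = 5) and 4.40 ± 0.07 log2 CPM (SD, n = 6), Nrf1 itself did not pass the test between HFD and HFD + IMC (limma adjusted p = 0.147). Esrra, an estrogen related receptor, measured 5.73 ± 0.10 (SD, n = 5) and 5.65 ± 0.06 (SD, n = 6) and did not pass it either (adjusted p = 0.216).

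Cs (chr10:128337734-128362479, GRCm38, plus strand) encodes citrate synthase, which condenses acetyl-CoA and oxaloacetate. It measured 8.36, 8.50, 8.34, 8.43 and 8.56 log2 CPM in the 5 HFD mice. The 6 IMC-treated mice ranged from 8.74 to 9.03 with a median of 8.84, so the groups did not overlap. The log2 fold change was 0.42 (SE 0.07, 95% confidence interval 0.27 to 0.56, limma adjusted p = 0.00040), a 1.33-fold difference. Acly, which splits exported citrate in the cytosol, was higher by 0.20 on the log2 scale (adjusted p = 0.0146). The Cs to Acly log2 ratio went from 0.14 ± 0.18 (SD, n = 5) to 0.35 ± 0.17 (SD, n = 6) with IMC. This difference of 0.21 did not pass the threshold (two-sided exact permutation test, p = 0.0736, adjusted p = 0.0883 over 6 partner pairs), except without HFD mouse 5, where it was 0.28 (adjusted p = 0.0429).

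NAD-dependent isocitrate dehydrogenase turns isocitrate into 2-oxoglutarate, and its 3 kinds of subunit rose by unequal amounts. Idh3a (chr9:54586334-54604661, plus strand) encodes the catalytic alpha subunit. It measured 7.33, 7.69, 7.48, 7.64 and 7.61 log2 CPM in HFD mice and 7.94 to 8.20, median 8.01, in IMC-treated mice. Every IMC-treated mouse was above every HFD mouse, and the log2 fold change was 0.50 (SE 0.07, limma adjusted p = 0.00018), or 1.42-fold. Idh3g (chrX:73778963-73786897, minus strand), the gamma subunit, measured 6.77, 6.93, 6.82, 6.91 and 6.95 log2 CPM in HFD mice and 7.07 to 7.39, median 7.25, in IMC-treated mice. The groups again did not overlap, and the log2 fold change was 0.35 (SE 0.06, limma adjusted p = 0.00060).

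Idh3b (chr2:130279309-130284547, minus strand) encodes the beta subunit. It measured 7.09, 7.10, 7.08, 7.16 and 7.21 log2 CPM in HFD mice and 7.18 to 7.38, median 7.28, in IMC-treated mice. HFD mouse 5 was above the 2 lowest IMC-treated mice, mice 4 and 5. The log2 fold change was 0.13 (SE 0.05, 95% confidence interval 0.03 to 0.23, limma adjusted p = 0.0330). The call was lost when libraries were scaled by total count (0.10, adjusted p = 0.102). It was also lost without any 1 of HFD mice 1, 2 and 3 and IMC-treated mice 1, 2, 3 and 6, with adjusted p of 0.0537 to 0.0813 and log2 fold changes of 0.11 to 0.13. The last 5 bases of its annotated span overlap Nop56 on the other strand, and whether reads were counted by strand was not given.

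Ratios within a mouse do not depend on how its library was scaled. The Idh3a to Idh3b log2 ratio went from 0.42 ± 0.13 (SD, n = 5) without IMC to 0.79 ± 0.08 (SD, n = 6) with it, a difference of 0.37 with no overlap (two-sided exact permutation test, p = 0.00216, adjusted p = 0.00779 over 36 pairs). The Idh3b to Idh3g log2 ratio went from 0.25 ± 0.05 (SD, n = 5) to 0.03 ± 0.05 (SD, n = 6), a difference of -0.22, also with no overlap and with the same exact p. The value 0.00216 is the smallest that arrangements of 5 and 6 mice can give. Idh3a also rose over Idh3g, by 0.15 (exact p = 0.0108, adjusted p = 0.0205), but not without HFD mouse 1 (0.12, adjusted p = 0.0514). The order of the differences was thus alpha, gamma, beta, and each step passed the test when all 11 mice were used. Idh2, the separate mitochondrial enzyme that uses NADP, was higher by 0.28 (SE 0.08, limma adjusted p = 0.0136). Its groups overlapped, at 6.47 to 6.68 log2 CPM in HFD mice and 6.61 to 7.11 in IMC-treated mice. The Idh3a to Idh2 log2 ratio rose by 0.22 (exact p = 0.0173, adjusted p = 0.0346 over 6 partner pairs). This did not hold without any 1 of HFD mouse 1 and IMC-treated mice 1, 3, 4 and 5 (0.19 to 0.22, adjusted p = 0.0635 to 0.0667).

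Ogdh (chr11:6291633-6356642, plus strand) encodes the E1 subunit of the 2-oxoglutarate dehydrogenase complex, which makes succinyl-CoA. It measured 8.41, 8.56, 8.41, 8.36 and 8.48 log2 CPM in HFD mice. The IMC-treated mice lay close together at 8.68 to 8.77, median 8.72, and all were above the HFD mice. Ogdh thus rose by 0.28 on the log2 scale (SE 0.05, limma adjusted p = 0.00052), or 1.21-fold. The spread among IMC-treated mice (SD 0.04) was the smallest of the 9 genes. Dlst, the E2 subunit, was higher by 0.30 (adjusted p = 0.00023), and Dld, the E3 subunit shared with pyruvate dehydrogenase, by 0.35 (adjusted p = 0.00023), both without overlap. The Ogdh to Dlst log2 ratio was 1.11 ± 0.09 (SD, n = 5) and 1.08 ± 0.06 (SD, n = 6), and no difference was detected (exact permutation p = 0.582). Mrps36, which links the subunits of the complex, stood near 1 CPM, at -0.04 on the log2 scale (SE 0.22, 95% confidence interval -0.51 to 0.44), so that a difference the size of those of its partners was within its error.

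Succinyl-CoA ligase turns succinyl-CoA into succinate and makes ATP or GTP, depending on which beta subunit joins the shared alpha subunit. Sucla2 (chr14:73525319-73596142, plus strand) encodes the ATP-forming beta subunit. It measured 6.90, 7.14, 6.97, 6.95 and 7.07 log2 CPM in HFD mice and 7.41 to 7.75, median 7.55, in IMC-treated mice. The gap between the highest HFD mouse and the lowest IMC-treated mouse was 0.27 on the log2 scale. The log2 fold change was 0.56 (SE 0.06, 95% confidence interval 0.42 to 0.69, limma adjusted p = 4.4e-05).

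Suclg1 (chr6:73248382-73276911, plus strand), the shared alpha subunit, rose less than Sucla2. It measured 6.35, 6.51, 6.38, 6.49 and 6.54 log2 CPM in HFD mice and 6.55 to 6.85, median 6.69, in IMC-treated mice. The groups did not overlap, but the gap between them was 0.016 on the log2 scale. Its log2 fold change was 0.23 (SE 0.06, limma adjusted p = 0.0074). The Sucla2 to Suclg1 log2 ratio went from 0.55 ± 0.06 (SD, n = 5) to 0.88 ± 0.13 (SD, n = 6), a difference of 0.33 with no overlap (two-sided exact permutation test, p = 0.00216, adjusted p = 0.00779). Suclg2, the GTP-forming beta subunit, was higher by 0.35 (SE 0.10, limma adjusted p = 0.0119). It stood at 3.89 to 4.27 log2 CPM in HFD mice and 4.20 to 4.60 in IMC-treated mice. The Sucla2 to Suclg2 log2 ratio differed by 0.21, which did not pass the test (exact p = 0.0519, adjusted p = 0.0779). It did so on the log2(CPM + 1) scale (0.23, adjusted p = 0.0487), without HFD mouse 2 (0.28, adjusted p = 0.0286) and without IMC-treated mouse 2 (0.26, adjusted p = 0.0357).

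Succinate dehydrogenase, which is also complex II of the respiratory chain, oxidises succinate to fumarate. Sdha (chr13:74322254-74350280, minus strand) encodes its flavoprotein subunit, which holds the active site. It measured 8.28, 8.46, 8.29, 8.39 and 8.37 log2 CPM in HFD mice and 8.63 to 8.85, median 8.73, in IMC-treated mice, with no overlap. Sdha rose by 0.37 on the log2 scale (SE 0.05, 95% confidence interval 0.26 to 0.49, limma adjusted p = 0.00023). The pseudogene Gm16125 lies inside its span on the other strand.

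Sdhb, the iron-sulphur subunit that takes the electrons from Sdha, did not pass the test. It measured 6.95, 6.78, 6.89, 6.94 and 6.93 log2 CPM in HFD mice and 6.81 to 6.96, median 6.88, in IMC-treated mice. The difference was -0.01 on the log2 scale (SE 0.04, 95% confidence interval -0.10 to 0.09, limma adjusted p = 0.930). The upper bound of this interval lay below the lower bound for Sdha, and the Sdha to Sdhb log2 ratio rose from 1.46 ± 0.13 (SD, n = 5) to 1.84 ± 0.05 (SD, n = 6). The difference of 0.38 had no overlap (two-sided exact permutation test, p = 0.00216, adjusted p = 0.0130 over 6 partner pairs) and stayed between 0.35 and 0.43 without each mouse in turn. The membrane anchors lay between: Sdhc was higher by 0.20 (limma adjusted p = 0.0111) and Sdhd by 0.16 (adjusted p = 0.0477). The call for Sdhd was lost under total-count scaling (0.12, adjusted p = 0.107), without a mean-variance trend (adjusted p = 0.0676), and without any 1 of the 5 HFD mice or IMC-treated mice 1, 2, 3 and 6 (adjusted p = 0.0607 to 0.114).

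Of the 4 assembly factors of this enzyme, 2 were higher, against 20% of all genes. Sdhaf3, which serves the iron-sulphur subunit, was higher by 0.40 (limma adjusted p = 0.0113) and Sdhaf4, which acts on flavinated Sdha, by 0.18 (adjusted p = 0.0227), although Sdhaf4 was not called without HFD mouse 1 or 3 (0.17 and 0.18, adjusted p = 0.0513 and 0.051). Sdhaf2, which acts in flavination of Sdha, was at 0.03 on the log2 scale (SE 0.04, adjusted p = 0.636), and Sdhaf1, which acts on the iron-sulphur subunit too, at 0.04 (SE 0.10, adjusted p = 0.754). Sucnr1, the cell surface receptor for succinate, was 1.78-fold higher. It measured 4.71, 5.31, 4.79, 5.09 and 5.07 log2 CPM in HFD mice and 5.73 to 6.05, median 5.80, in IMC-treated mice (log2 fold change 0.83, SE 0.10, limma adjusted p = 5.9e-05).

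Fumarase, encoded by Fh1, was higher by 0.29 (SE 0.07, limma adjusted p = 0.0055) without overlap. Mdh2 (chr5:135778480-135790398, plus strand) encodes mitochondrial malate dehydrogenase, which closes the cycle by making oxaloacetate. It measured 7.86, 7.91, 7.83, 7.89 and 8.08 log2 CPM in HFD mice and 7.99 to 8.36, median 8.13, in IMC-treated mice. HFD mouse 5 was above IMC-treated mice 4 and 5. The log2 fold change was 0.22 (SE 0.07, 95% confidence interval 0.07 to 0.37, limma adjusted p = 0.0202), and the call was lost without HFD mouse 3 (0.20, adjusted p = 0.0544). Mdh1, the cytosolic malate dehydrogenase of the malate-aspartate shuttle, was higher by 0.37 (adjusted p = 0.0011). The Mdh2 to Mdh1 log2 ratio went from -0.55 ± 0.10 (SD, n = 5) to -0.70 ± 0.05 (SD, n = 6), a difference of -0.15 (two-sided exact permutation test, p = 0.00866, adjusted p = 0.0260). Without IMC-treated mouse 1, 3, 4 or 5 this did not pass the threshold (-0.14, -0.15, -0.16 and -0.16, adjusted p = 0.0635 in each case).

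**Figure D2:**
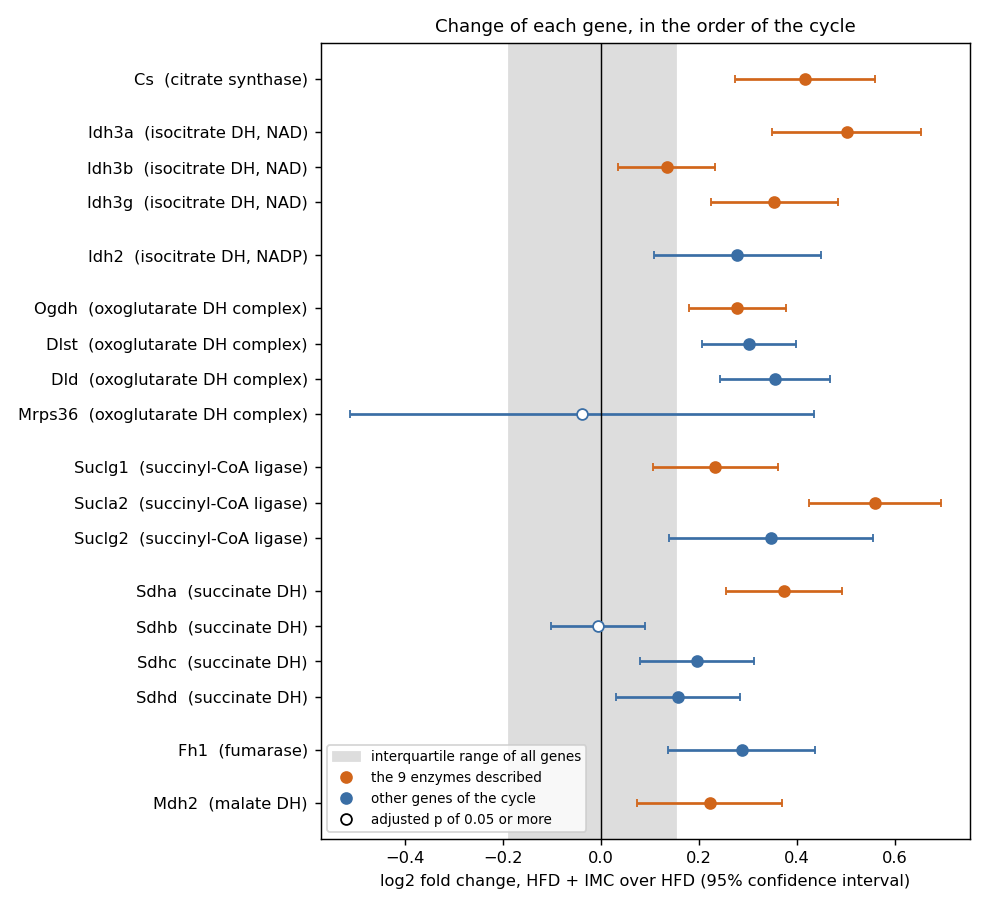
Log2 fold change (x axis, HFD + IMC over HFD, 95% confidence interval) of the 9 genes (orange) and 9 other genes of the cycle (blue), in the order of the reactions, with open symbols at an adjusted p of 0.05 or more and the interquartile range of all genes in grey. Sdhb at -0.01 stands apart from Sdha at 0.37, and Mrps36 has the widest interval.

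Of 9 other genes of the cycle, 7 were higher, against 20% of all genes, and Sdhb and Mrps36 did not pass the test. Their median log2 fold change was 0.28, against -0.03 for all genes. In 3 of these 9, Dlst, Dld and Fh1, every IMC-treated mouse was above every HFD mouse, as for 12.5% of all genes. The span of Fh1 overlaps Kmo on the other strand.

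The 9 genes did not rise by 1 common factor. Of their 36 pairwise log2 ratios, 25 differed between the groups (two-sided exact permutation tests, Benjamini-Hochberg over the 36 pairs), and 17 of the 36 had no overlap. Sucla2 rose against 7 of the 8 others and Idh3a against 6, and neither was called lower against any. Idh3b fell against all 8. Suclg1 and Mdh2 each fell against 5 and rose against Idh3b. Their ratio to each other was -1.46 ± 0.06 (SD, n = 5) and -1.45 ± 0.04 (SD, n = 6), and a difference was not detected (exact permutation p = 0.703). Cs and Sdha had log2 ratios of 0.08 ± 0.06 (SD, n = 5) and 0.12 ± 0.06 (SD, n = 6), again with no difference detected (exact permutation p = 0.290). The largest shift was between Sucla2 and Idh3b, whose log2 ratio, Idh3b over Sucla2, went from 0.12 ± 0.10 (SD, n = 5) to -0.30 ± 0.10 (SD, n = 6). Each ratio shares its genes with others, so the 36 are not independent. Without each mouse in turn, 18 to 24 pairs passed the test, and the 17 pairs with no overlap passed in each of these fits. The difference between Idh3b and Mdh2 was not called without any 1 of HFD mice 1, 2, 3 and 4 and IMC-treated mice 1, 2 and 6 (0.07 to 0.09 in size, adjusted p = 0.0754 to 0.123). That between Idh3b and Ogdh was lost without any 1 of HFD mice 1 and 4 and IMC-treated mice 3, 4 and 5 (0.12 to 0.14, adjusted p = 0.0571 to 0.0643). For Sucla2, the difference from Cs was lost without any 1 of HFD mice 1, 4 and 5 and IMC-treated mice 1, 3, 4 and 5 (0.12 to 0.16, adjusted p = 0.0571 to 0.0754). Without HFD mouse 1, Idh3b against Suclg1 and Idh3a against Idh3g, Ogdh and Sdha were also lost (adjusted p = 0.0514 to 0.0714).

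**Figure D3:**
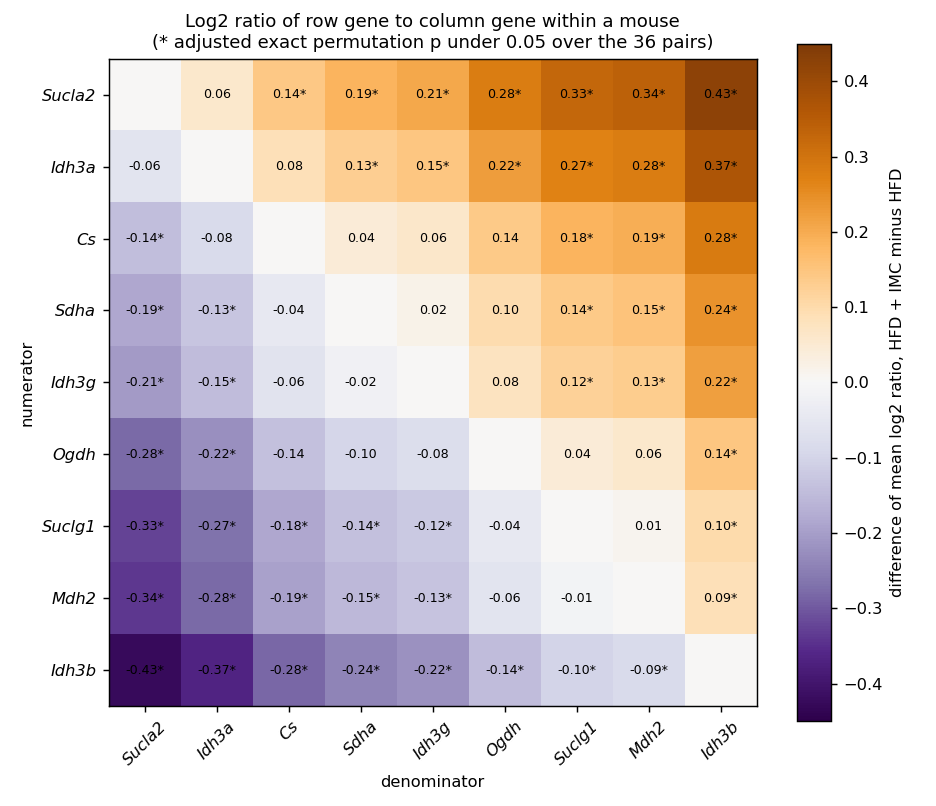
Difference in mean log2 ratio of the row gene to the column gene (HFD + IMC minus HFD, 11 mice), with genes in order of their log2 fold change and asterisks at an adjusted exact permutation p under 0.05. The largest values are those of Sucla2 and Idh3a over Idh3b, at 0.43 and 0.37.

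Compared per length of transcript, Mdh2 had the highest level of the 9 genes. It stood at 166 CPM per kb in HFD mice and 194 in IMC-treated mice, with the length of the GENCODE principal transcript as divisor. Cs followed with 119 and 159, and Sdha with 113 and 147 CPM per kb. These 3 kept their order in all 11 mice, and Sdha was above Idh3g in all 11. The next 4 genes lay close together in HFD mice, at 88.4 (Idh3g), 86.7 (Idh3b), 84.3 (Ogdh) and 78.4 (Idh3a) CPM per kb. Their order changed with the group: Idh3a was above Ogdh in 1 of 5 HFD mice and 5 of 6 IMC-treated mice, and Ogdh was above Idh3b in 1 of 5 and 6 of 6. Sucla2 and Suclg1 were close in HFD mice (57.8 and 57.7 CPM per kb, Sucla2 higher in 3 of 5 mice) and apart in IMC-treated mice (85.3 and 67.9, Sucla2 higher in 6 of 6). Suclg2, the other beta subunit, was far below both at 4.94 and 6.30 CPM per kb. The order depends on the length used: with all annotated exons merged, Sdha came first, followed by Mdh2, Ogdh and Cs. With that length, the mean of Ogdh in HFD mice was 5.99 log2 CPM per kb, above Idh3g (5.44), Idh3b (5.35) and Idh3a (5.21). Sucla2 and Suclg1 were apart in HFD mice on this measure, at 5.01 and 4.25. The closeness and the changes of order given above are therefore those with the principal transcript as divisor.

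**Figure D4:**
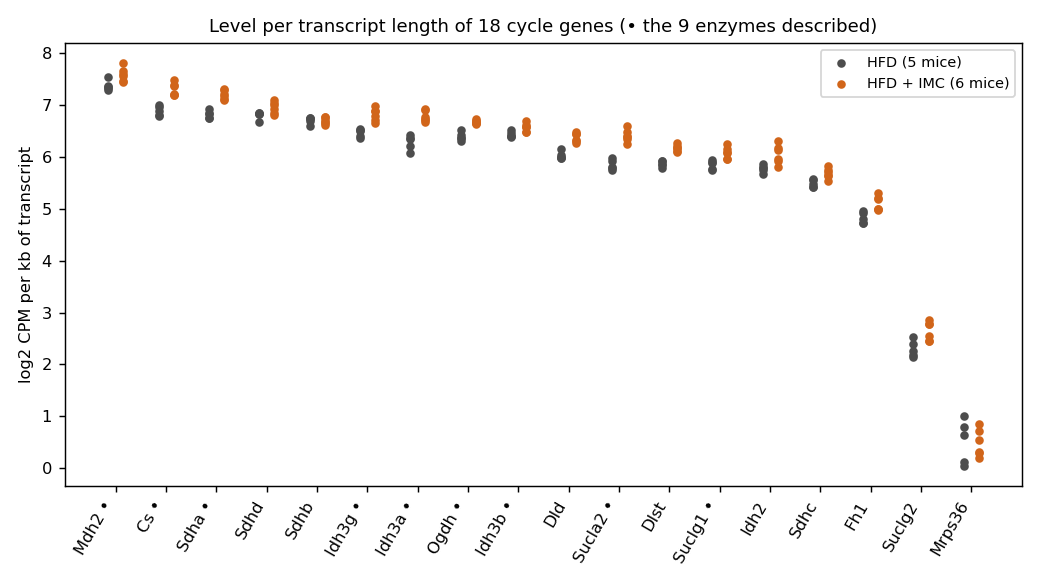
Level of 18 cycle genes per kb of principal transcript (y axis, log2 CPM per kb) in each of 5 HFD (grey) and 6 HFD + IMC (orange) mice, in order of their mean, with dots after the names of the 9 genes described. Suclg2 and Mrps36 lie far below the rest.

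Pyruvate dehydrogenase, which supplies acetyl-CoA to the cycle, was counted with its kinases and phosphatases. Of these 11 genes, 7 were higher and 1 was lower (median log2 fold change 0.36), against 20% higher and 21% lower of all genes. Pdha1, the catalytic E1 subunit, was higher by 0.36 (limma adjusted p = 0.00016) and Pdhx, which tethers the E3 subunit, by 0.41 (adjusted p = 0.00065). Of the regulators, the kinase Pdk2, which inhibits the complex, was higher by 0.44 (adjusted p = 0.00038), and so was the phosphatase Pdp2, which activates it, by 0.55 (adjusted p = 0.00038). The other phosphatase, Pdp1, was lower, with a log2 fold change of -0.35 (adjusted p = 0.0018); it was named after its value was seen.

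Of 9 genes of reactions that fill the cycle with carbon, 4 were higher (median log2 fold change 0.15), against 20% of all genes. Pcx, pyruvate carboxylase, which makes oxaloacetate, was 1.63-fold higher (log2 fold change 0.71, limma adjusted p = 0.00020). In the propionate route into succinyl-CoA, the carboxylase subunits Pccb and Pcca were higher by 0.57 and 0.49 (adjusted p = 0.00034 and 0.00041) and the mutase Mut by 0.50 (adjusted p = 6.8e-05). Mcee, the epimerase between them, was at 0.15 (adjusted p = 0.103) and was named after its value was seen.

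Among 12 genes of cytosolic partners and metabolite exchange, 7 were higher and 2 were lower (median 0.19). For this list and those after it, the shares of all genes were 20% higher and 21% lower. Slc25a10, the dicarboxylate carrier, was higher by 0.70 (limma adjusted p = 0.00022) and Aco1, the cytosolic aconitase, by 0.34 (adjusted p = 7.6e-05). Got1, the cytosolic aspartate aminotransferase, was lower, at -0.33 (adjusted p = 0.00075), and so was Slc25a13, an aspartate-glutamate carrier, at -0.38 (adjusted p = 0.0078), named after its value was seen. A reference list of 12 mitochondrial genes of other kinds gave 4 higher and 1 lower, with a median of 0.11. In it, Lonp1, a matrix protease, was higher by 0.38 (adjusted p = 6.4e-05), and the matrix chaperones Hspa9 and Hspd1 each by 0.24 (adjusted p = 0.0018 and 0.0024), Hspd1 being named after its value was seen. Tomm20, an outer membrane import receptor, was higher by 0.27 (adjusted p = 0.00064), and Vdac2, an outer membrane channel, was lower, at -0.22 (adjusted p = 0.0016). Of 10 regulators of mitochondrial genes, 8 were listed and 1 was called (median -0.02). This was Ppara, a nuclear receptor for fatty acids, at 0.99 (SE 0.19, adjusted p = 0.0014), while Ppargc1b was at 0.26 (SE 0.15, adjusted p = 0.188). Ppargc1a and Esrrg were not listed.

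**Figure D5:**
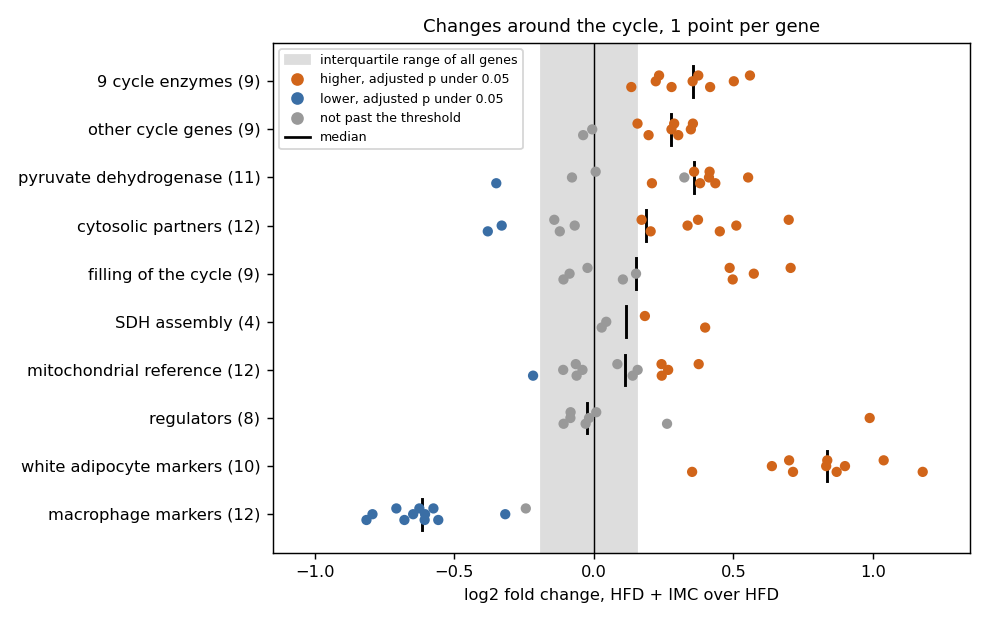
Log2 fold change (x axis, HFD + IMC over HFD) of each gene of the cycle and of the lists around it, 1 point per gene, with colours for the call at an adjusted p of 0.05, a line at each median and the interquartile range of all genes in grey. The 9 genes (median 0.35) lie between the mitochondrial reference list (0.11) and the white adipocyte markers (0.83), and macrophage markers lie on the other side (-0.62).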

How the data were processed

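RNA from gonadal WAT of 5 HFD and 6 HFD + IMC mice was extracted on lipid tissue columns and sequenced from directional mRNA libraries. Reads were trimmed with Trim Galore, checked with FastQC, aligned to mm10 with STAR and counted per gene with UCSC annotation, and genes under 1 CPM in all samples were removed. The authors scaled libraries by their upper quartile in edgeR and deposited log2 CPM per gene and mouse for 12787 genes. The numbers of transcripts that the paper gives for its filter leave fewer than this, and the reason was not given. The table also holds the fold change, mean level, statistic, p-value and FDR of their own comparison, which were not used. The strand setting of the counts was not given in the sources used here, which limits the values of genes whose spans overlap others, Sucla2 included.

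Groups came from the sample labels. The deposited log2 CPM values were compared with limma 3.58.1 in R 4.3.3 (lmFit, eBayes with trend, group as the only factor, two-sided, Benjamini-Hochberg over all 12787 genes, threshold 0.05), because the values are not counts. Whole reads, with a mean constant of 0.25 reads, were recovered from the steps of the values and served for depth, other scalings and voom. Log2 ratios were compared by two-sided exact permutation over all arrangements of the 11 mice into 5 and 6. The steps were tested on simulated data. Lengths and coordinates came from GENCODE vM21 (GRCm38, the same build as mm10) and upstream sequences from RefSeq. Replicate numbers only name mice and pair none.

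The 9 genes and the lists were chosen with earlier results of these data known, and some genes of the lists are not reported here. Genes named were the 9, the other genes of the cycle, the 4 with the smallest p in each other list, and the 8 most like the 9 by correlation. Alternatives were limma without a trend, robust limma, voom, log2(CPM + 1), a minimum of 1 CPM in every mouse, total-count and median-of-ratios scaling, and leaving out each mouse. Python 3.11.15 with numpy, pandas and matplotlib was used for tables and figures.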

Additional observations from a re-analysis of the deposited data

Results flagged for a closer look

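Sdhd, the small membrane anchor of succinate dehydrogenase, measured 6.97 log2 CPM in HFD mouse 5, while the other 4 HFD mice lay at 7.13 and above. The gap to the nearest mouse was 0.958 of the range of the group, against a 95% critical value of 0.71 for 5 samples (Dixon). It was the 1 value past this limit in 36 groups tested, and chance gives about 1 in 20. Without this mouse the log2 fold change of Sdhd was 0.12 (limma adjusted p = 0.114). The same mouse was the highest HFD mouse for 5 of the 9 genes.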

How the results depend on the processing

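All 9 genes were called higher under each alternative named in the processing except total-count scaling (8, without Idh3b), and 7 to 9 were called when mice were left out. Of the 9 other cycle genes, 7 were called, or 6 without a trend and under total-count scaling, and 6 or 7 when mice were left out. Total-count scaling moved the median log2 fold change of all genes by less than 0.1. Of the partner ratios, Sucla2 to Suclg2 differed by 0.23 on the log2(CPM + 1) scale (adjusted exact permutation p = 0.0487), which is past the threshold. With each mouse left out, it ranged from 0.17 to 0.28, Idh3a to Idh2 from 0.19 to 0.26, Mdh2 to Mdh1 from -0.17 to -0.12 and Cs to Acly from 0.16 to 0.28. Fewer mice also raise the smallest p that the exact test can give.

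Changes of sign touched values near 0 that were not called. The log2 fold change of Sdhb was 0.0025 under median-of-ratios scaling and -0.034 to 0.011 with each mouse left out, and that of Mrps36 was -0.16 to 0.084. Sdhaf2 was at -0.00415 under total-count scaling, and Sdhaf1 ranged from -0.012 to 0.086 with each mouse left out. The Suclg1 to Mdh2 log2 ratio ranged from -0.0071 to 0.029. The cause of these changes was not tested. Mrps36 has no value where 1 CPM was required in every mouse. At about 1 CPM, its interval was too wide to show a difference of the size seen in the other genes.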

Other observations

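For 8 genes, chosen by rank, levels varied most like those of the 9 from mouse to mouse. Likeness was measured as Pearson r, over 11 mice, between a gene's deviations from its group means and those of the mean of the 9 genes, so the difference between the groups does not enter. The points share libraries and their scaling, the genes were picked for a high r, and r is given as a description. The 9 genes did not all vary alike. Against the mean of the other members, r was 0.41 for Ogdh and 0.68 for Sucla2, and 0.79 to 0.96 for the rest. Cpt2, which releases fatty acyl-CoA inside the mitochondrion, had r = 0.979 (Spearman rho 0.973), and Hadh, an enzyme of fatty acid oxidation, had r = 0.969 (rho 0.945). Clybl, a mitochondrial lyase, had r = 0.973 (rho 0.918), and Bckdha, a subunit of the branched-chain ketoacid dehydrogenase, had r = 0.964 (rho 0.982). Atp5b, a catalytic subunit of ATP synthase, had r = 0.965 (rho 0.918), and Pdhx of pyruvate dehydrogenase had r = 0.964 (rho 0.945). Blcap (r = 0.979, rho 0.982) and Cers4, a ceramide synthase (r = 0.967, rho 0.927), complete the 8 genes.

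All 8 were higher in IMC-treated mice (limma), against 20% higher and 21% lower of all genes. These genes were picked for their likeness to the cycle genes, and the part of this choice in the count was not tested. The log2 fold changes were 0.51 for Cpt2 (adjusted p = 0.00036), 0.51 for Hadh (adjusted p = 0.00057), 0.54 for Clybl (adjusted p = 0.0012) and 0.43 for Bckdha (adjusted p = 0.0013). They were 0.35 for Atp5b (adjusted p = 0.0013), 0.41 for Pdhx (adjusted p = 0.00065), 0.41 for Blcap (adjusted p = 0.00054) and 0.87 for Cers4 (adjusted p = 0.00018).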
